A study of Mus musculus with 47 samples.

Results

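Esr1, Pgr and Nr3c1 encode the estrogen receptor alpha, the progesterone receptor and the glucocorticoid receptor. They were chosen by symbol (ESR1, PGR and NR3C1, without regard to capital letters) and are 3 of the 22007 symbols measured. Their RNA was followed in 47 libraries from cells sorted by flow cytometry out of mouse mammary tissue, in 3 fractions labelled luminal mature (LM), luminal progenitor (LP) and mammary stem cells (MSC). All mice were of the FVB strain and had been ovariectomized, and treatment lasted 14 days. One group received estradiol and progesterone (EP) together with telapristone acetate (EP+TPA), and another received EP together with mifepristone (EP+RU486). A further group received EP alone, and the last received a sham treatment (sham) after ovariectomy. Doses, the age of the animals and the surface markers of the sort are not stated in the labels. Each fraction had 4 libraries per treatment, except LM under EP with 3. Each library of a fraction came from a different mouse, and 20 mice gave the 47 libraries.

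The 3 receptors are transcription factors of the nuclear receptor family. They wait in a complex with chaperones, bind a steroid, and then act on DNA and on other factors at their target genes. In the mammary epithelium the estrogen receptor and the progesterone receptor lie mostly in the same mature luminal cells. Those cells answer ovarian hormones with secreted signals such as amphiregulin, RANKL and Wnt4, which reach neighbouring cells that lack the receptors. Pgr is a textbook target of the estrogen receptor, and activated progesterone receptor protein is degraded faster than idle receptor. The glucocorticoid receptor is found in most cell types, binds the same DNA element as the progesterone receptor, and in the gland is best known for its part in milk gene transcription. Telapristone and mifepristone are both steroidal antagonists of the progesterone receptor, and mifepristone also blocks the glucocorticoid receptor.

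Stretches of DNA just before annotated starts of Esr1 and Pgr are shown because these 2 genes had the largest differences between treatments. They come from RefSeq on the mouse build GRCm38.p6, read 5′ to 3′ on the plus strand, and are trimmed of bases annotated as untranslated. The first Esr1 window is chr10:4611739-4611988, the second, before another annotated start of the gene, is chr10:4709908-4710154, and the Pgr window is chr9:8899583-8899832. The Pgr window lies within the annotated span of the gene, which begins at 8898900, and so not before the first base of the gene. Capitals mark matches to any of the motifs searched.
Esr1, first start: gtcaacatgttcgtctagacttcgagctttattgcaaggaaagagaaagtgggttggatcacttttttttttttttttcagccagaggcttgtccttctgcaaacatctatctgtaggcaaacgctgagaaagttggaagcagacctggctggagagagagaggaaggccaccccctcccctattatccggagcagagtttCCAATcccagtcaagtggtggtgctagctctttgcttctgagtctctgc
Esr1, second start: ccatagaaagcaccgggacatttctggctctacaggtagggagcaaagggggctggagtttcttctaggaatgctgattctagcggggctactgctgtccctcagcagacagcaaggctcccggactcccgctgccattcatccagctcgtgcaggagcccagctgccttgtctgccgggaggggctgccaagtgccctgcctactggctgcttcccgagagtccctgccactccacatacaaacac
Pgr: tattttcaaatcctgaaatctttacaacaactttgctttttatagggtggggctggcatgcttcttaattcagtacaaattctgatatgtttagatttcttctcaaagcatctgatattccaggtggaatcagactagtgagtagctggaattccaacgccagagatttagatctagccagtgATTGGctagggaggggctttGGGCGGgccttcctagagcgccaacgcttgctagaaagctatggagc

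The motifs were searched on both strands. They were the estrogen response element (GGTCA and TGACC with 3 bases between them) and its single arm GGTCA, which lies within it. The element shared by the progesterone and glucocorticoid receptors (AGAACA and TGTTCT with 3 bases between them) was searched with its single arm AGAACA, which also lies within it. The forkhead motif TGTTTAC, the GC box GGGCGG, the CCAAT box CCAAT and the AP-1 motif TGANTCA were searched as well. The first Esr1 window held 1 CCAAT box, whose match begins 49 bases before the end of the window. The Pgr window held 1 GC box beginning 47 bases before its end and 1 CCAAT box on the minus strand, printed as ATTGG, beginning 67 bases before its end. A GC box was found in 32.7% and a CCAAT box in 33.8% of 32851 promoter windows of 250 bases, so these letters are common. None of the 3 windows held either response element, which was present in 0.0639% of all windows for the estrogen receptor and in 0.00913% for the shared element. The single arms GGTCA (35.2% of windows) and AGAACA (16.1%) and the forkhead (3.17%) and AP-1 (6.75%) letters were not in the 3 windows either. A match describes letters and not a bound site.

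Levels below are deposited FPKM values (mapped fragments scaled for the length of the transcript and for library depth), rescaled for differences in overall level between libraries. Read depth is unknown; the values of a library summed to between 217977 and 358375, and 9397 to 11315 genes lay above 1. The values had been adjusted gene by gene, apparently within 3 sets of libraries, so levels of LM are not set against those of the other fractions. Set 1 holds the LM libraries, set 2 the LP libraries and 6 of the 16 MSC libraries, and set 3 the other 10 MSC libraries. A value listed at 0 may lie under the shift of that adjustment and does not show absence. The labels were compared with marker lists. Krt8, Krt18 and the other luminal mature markers (15 genes) summed to between 1179.8 and 10574 in LM, but luminal progenitor markers (11 genes) were also high there, between 3121 and 30219. In LP the progenitor markers ranged from 1568 to 25381. Basal markers (11 genes) ranged from 84.2 to 8529 over the MSC libraries (2 sets adjusted separately).

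In LM cells Esr1 was high in sham and low in every hormone-treated group. Under EP+TPA it measured 1.37 in mouse 312, 1.29 in mouse 328, 0.737 in mouse 332 and 0.604 in mouse 336. Under EP+RU486 it measured 1.37, 2.06, 0.488 and 1.49 in mice 308, 313, 329 and 333. Under EP alone it was 2.44, 11.7 and 1.63 in mice 306, 311 and 327, against 16.5, 19.8, 28.9 and 30.3 in sham mice 301, 305, 310 and 326. Every EP library lay below every sham library, with mouse 311 far above the other 2 EP mice. The 4 EP+TPA libraries all lay below the 3 EP libraries, while mouse 313 of EP+RU486 lay above the lowest EP mouse.

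Esr1 therefore fell in LM to 5.25 ± 5.58 under EP (SD, n = 3), against 23.9 ± 6.78 in sham (n = 4), a ratio of sham to EP of 4.55. The log2 difference on the log2(value + 1) scale was -2.32 with a standard error of 0.43, and the adjusted p from limma was 0.00255. Esr1 was the only 1 of the 3 receptor genes called in that comparison, in which 19.5% of 11891 genes were called, 10.5% higher and 8.91% lower. With an antagonist added the means were 1.0 ± 0.386 under EP+TPA and 1.35 ± 0.651 under EP+RU486. Both lay below sham, with log2 differences of -3.62 for EP+TPA and -3.41 for EP+RU486 (adjusted p 3.73e-05 and 4.51e-05). Set against EP alone, the differences of -1.30 for EP+TPA (95% interval -2.21 to -0.39, adjusted p 0.0911) and -1.09 for EP+RU486 (-2.0 to -0.18, adjusted p 0.0869) did not pass the threshold of 0.05. Without EP mouse 327 both passed, at -1.74 and -1.53 with adjusted p of 0.0415 and 0.0356, and without the rescaling they passed at -1.39 and -1.19 with adjusted p of 0.0473 and 0.0445. Without EP mouse 311 they shrank to -0.61 and -0.40 (adjusted p 0.278 and 0.411), and with library weights that of EP+TPA was -0.70 (adjusted p 0.170).

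In LM the list of mature luminal markers also differed between groups, but it did not follow Esr1 throughout. Its sum was 2926.5 to 9547 under EP+TPA, 1179.8 to 2980.0 under EP+RU486, 3134 to 10574 under EP and 7261 to 10192 in sham. The sum of 9547, within the sham range, was that of EP+TPA mouse 336, which had the lowest Esr1 of its group (0.604). The median sum was higher under EP+TPA (4651) than under EP (3776), whereas mean Esr1 was lower under EP+TPA. Foxa1, Prlr, Cited1, Areg, Tnfsf11 and Wnt4, 6 of the 15 genes, were at their lowest listed value in all 4 EP+RU486 libraries. In EP+TPA mice 312, 328 and 336 also 6 of the 15 were at the lowest value, and in mouse 332 it was 1. In the EP libraries it was 1, 0 and 0, and in each sham library 1. Progenitor markers summed to 3891 to 30219 under EP+TPA, 10359 to 13436 under EP+RU486, 3121 to 3627 under EP and 7324 to 18526 in sham. The sum of 30219 was also that of mouse 336. Several of these markers are themselves hormone targets, and their part in the result was not tested. In sorted bulk RNA, fewer cells of a type and less RNA per cell cannot be told apart.

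Pgr in LM differed from Esr1 in its order of groups. It was listed at 0 in 3 of the 4 EP+TPA libraries, with 0.709 in mouse 332. It was likewise at 0 in 3 of the 4 EP+RU486 libraries, with 0.183 in mouse 308. Under EP alone it was 2.43, 11.1 and 1.47 in mice 306, 311 and 327, against 1.48, 4.67, 5.39 and 4.04 in sham mice 301, 305, 310 and 326. Both antagonist groups lay wholly below both other groups, while EP and sham overlapped.

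Pgr fell with either antagonist added to EP. The fitted log2 difference from EP was -2.03 for EP+TPA (SE 0.44, adjusted p 0.0192) and -2.17 for EP+RU486 (SE 0.44, adjusted p 0.00553). Of the 3 receptor genes, Pgr alone was called for EP+TPA against EP, where 4.34% of genes were called, 1.25% higher and 3.09% lower. For EP+RU486 against EP, where 17.8% were called, 7.99% higher and 9.82% lower, Pgr fell and Nr3c1 rose. These folds are set by the value added before the logarithm, since most antagonist libraries are listed at 0, and they became -4.39 and -4.77 when 0.1 was added in place of 1. The EP+TPA call was lost without EP+TPA mouse 312, 328 or 336, with adjusted p of 0.0581 to 0.0658, and in a fit of those 2 groups alone, with 0.154. Without EP mouse 311 the EP+TPA difference was -1.35. The EP+RU486 call held with each library left out in turn. Against sham, Pgr was lower by -2.01 under EP+TPA and by -2.14 under EP+RU486 on the log2 scale (adjusted p 0.00398 and 0.0021), or -4.42 and -4.80 with 0.1 added. EP against sham gave a log2 difference of 0.02 with a 95% interval of -0.92 to 0.96 for Pgr, at means of 5.0 ± 5.31 and 3.89 ± 1.70.

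Nr3c1 moved the other way in LM. Its level was 10.7, 9.73, 9.37 and 10.9 in EP+TPA mice 312, 328, 332 and 336, and 10.4, 8.25, 9.71 and 10.1 in EP+RU486 mice 308, 313, 329 and 333. Under EP it was 7.63, 3.87 and 6.10 in mice 306, 311 and 327, against 7.83, 4.61, 4.99 and 4.20 in sham mice 301, 305, 310 and 326. Every antagonist library lay above every EP and every sham library, and EP and sham overlapped.

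The mean of Nr3c1 was 10.2 ± 0.751 under EP+TPA and 9.62 ± 0.954 under EP+RU486, against 5.87 ± 1.89 under EP and 5.41 ± 1.65 in sham. Relative to sham it rose with both, by 0.83 for EP+TPA (SE 0.20, adjusted p 0.0112) and by 0.76 for EP+RU486 (SE 0.20, adjusted p 0.0153). The last of these was lost without sham mouse 326, at 0.67 with an adjusted p of 0.0570. Relative to EP it rose by 0.66 for EP+RU486 (SE 0.22, adjusted p 0.0464), and the difference of 0.74 for EP+TPA (SE 0.22, adjusted p 0.0623) missed the threshold. The EP+RU486 call was lost in 6 of 7 fits that left out 1 library, namely mouse 308, 313, 329 or 333 of EP+RU486 or mouse 311 or 327 of EP, with adjusted p of 0.0561 to 0.20. Without EP mouse 311 the difference was 0.43. It was also lost without rescaling (0.52, adjusted p 0.131), with another scaling, with no filter on low values and in a fit of the 2 groups alone. The EP+TPA difference passed without EP+TPA mouse 332 (0.78, adjusted p 0.0305) and with library weights (0.60, adjusted p 0.0336). EP against sham gave 0.09 (95% interval -0.37 to 0.56).

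Against sham, all 3 receptor genes were called in LM with each antagonist, 1 higher and 2 lower, where 16.0% of all genes were called for EP+TPA and 21.4% for EP+RU486. Of all genes 7.01% were called higher and 9.02% lower for EP+TPA, and 9.42% higher and 12.0% lower for EP+RU486. The 6 comparisons of LM gave 10 calls among 18. They reuse the same 4 groups, and the share of all genes called ran from 0% to 21.4% by comparison.

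**Figure D1:**
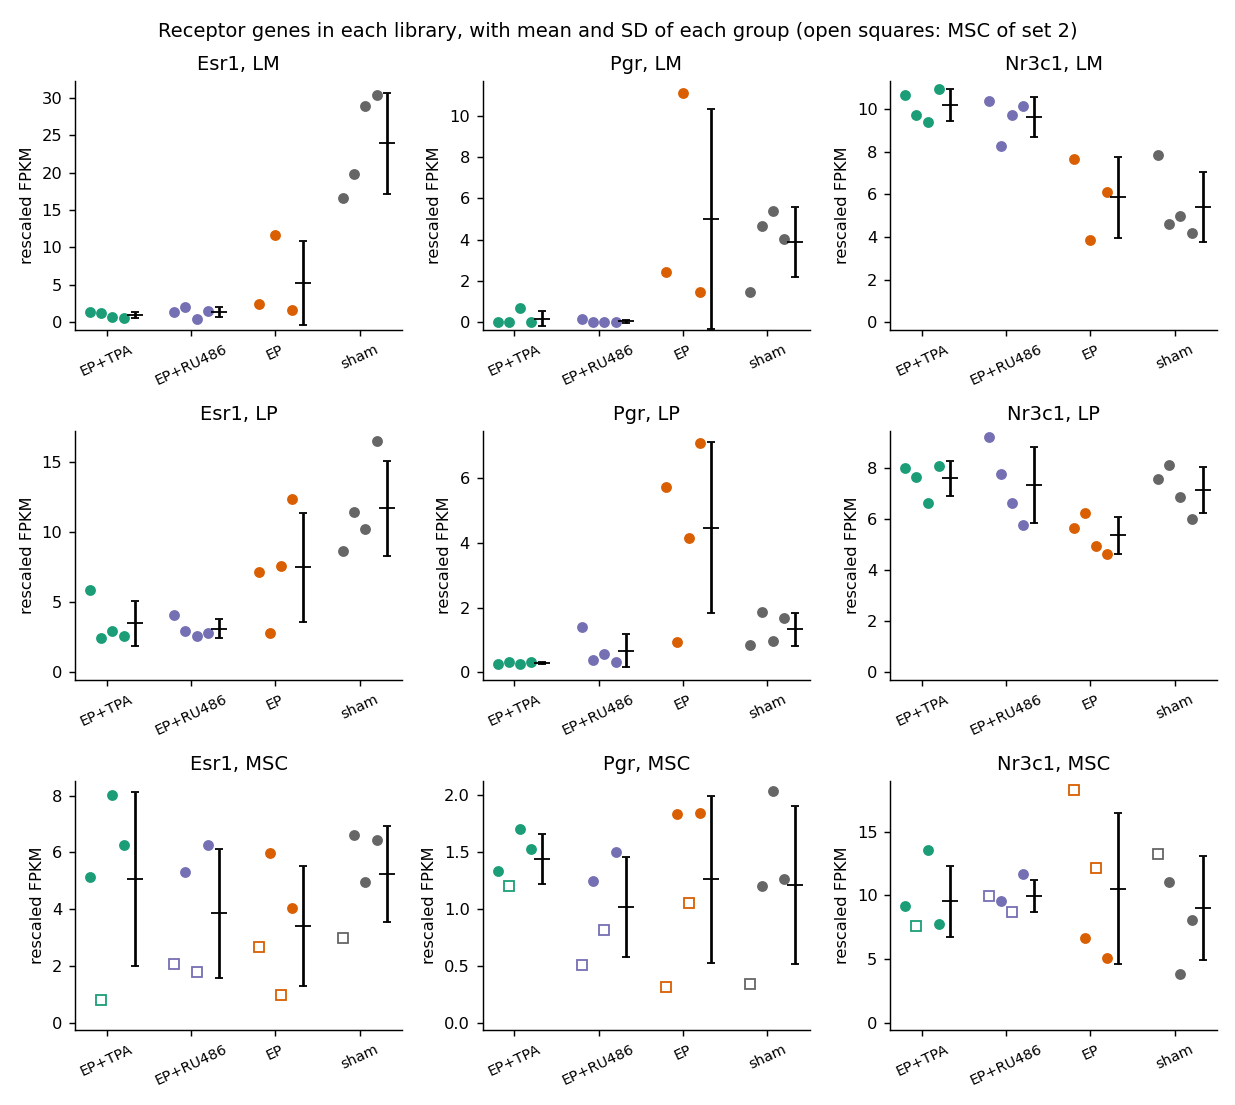
Rescaled FPKM of Esr1, Pgr and Nr3c1 (columns of panels) in LM, LP and MSC (rows), with EP+TPA, EP+RU486, EP and sham from left to right. Each mark is 1 library, bars are the mean ± SD, open squares are MSC libraries of set 2, and each panel has its own scale. The bars of MSC pool both sets. In LM, Esr1 of the hormone-treated groups lies at 0.488 to 11.7 and that of sham at 16.5 to 30.3, while Pgr of both antagonist groups lies at or near 0.

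In LP cells the pattern of Pgr was clearest. It was 0.276, 0.321, 0.263 and 0.336 in EP+TPA mice 312, 323, 328 and 336, and 1.41, 0.389, 0.582 and 0.309 in EP+RU486 mice 304, 308, 324 and 329. Under EP it was 5.72, 0.950, 4.15 and 7.08 in mice 306, 311, 322 and 327, against 0.835, 1.86, 0.971 and 1.68 in sham mice 301, 305, 310 and 326. The EP+TPA libraries all lay below every EP and every sham library. EP mouse 311 lay among the sham values and below EP+RU486 mouse 304, and the other 3 EP mice were the highest of the fraction.

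Pgr in LP rose to 4.47 ± 2.64 under EP, against 1.34 ± 0.509 in sham (n = 4 each), with a log2 difference of 1.07 (SE 0.34, adjusted p 0.0229). It was the only receptor gene of the 3 called there, in a comparison in which 32.3% of 11391 genes were called, 15.8% higher and 16.5% lower. The call was lost without EP mouse 306, 322 or 327 or sham mouse 301 or 310, at 0.83 to 1.04 with adjusted p of 0.0530 to 0.0757, and in a fit of the 2 groups alone, with 0.0843. With an antagonist Pgr fell to 0.299 ± 0.0348 under EP+TPA and 0.672 ± 0.503 under EP+RU486. The log2 difference from EP was -1.89 for EP+TPA (SE 0.34, adjusted p 0.00114) and -1.57 for EP+RU486 (SE 0.34, adjusted p 0.00402), and both calls held under each alternative and with each library left out. With 0.1 added in place of 1 the differences were -3.21 and -2.46. Against sham they were -0.82 for EP+TPA (95% interval -1.53 to -0.11, adjusted p 0.192) and -0.50 for EP+RU486 (-1.21 to 0.21, adjusted p 0.381). With library weights the first passed, at -0.85 with an adjusted p of 0.0296.

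Esr1 in LP was 5.91, 2.46, 2.98 and 2.63 in EP+TPA mice 312, 323, 328 and 336, and 4.10, 2.99, 2.60 and 2.85 in EP+RU486 mice 304, 308, 324 and 329. Under EP it was 7.19, 2.83, 7.60 and 12.4 in mice 306, 311, 322 and 327, against 8.67, 11.4, 10.2 and 16.5 in sham mice 301, 305, 310 and 326. Both antagonist groups lay below every sham library, and EP overlapped with all 3 other groups, with mouse 311 the lowest and mouse 327 the highest of the EP mice.

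Relative to sham, Esr1 in LP fell by 1.52 on the log2 scale under EP+TPA (SE 0.31, adjusted p 0.00975) and by 1.60 under EP+RU486 (SE 0.31, adjusted p 0.00471). It was the single receptor gene called in each, where 5.06% of genes (1.76% higher, 3.30% lower) and 10.4% of genes (3.98% higher, 6.44% lower) were called. Its mean was 3.50 ± 1.62 under EP+TPA and 3.13 ± 0.664 under EP+RU486, against 7.50 ± 3.90 under EP and 11.7 ± 3.38 in sham. Against EP, the difference of -0.92 for EP+RU486 passed narrowly (SE 0.31, adjusted p 0.0486) and that of -0.85 for EP+TPA did not (SE 0.31, adjusted p 0.0753). The EP+RU486 call was lost in 7 of 8 fits that left out 1 library, namely any EP+RU486 mouse or EP mouse 306, 322 or 327, at -1.03 to -0.66 with adjusted p of 0.0537 to 0.149. The EP+TPA difference passed without EP mouse 311 (-1.18, adjusted p 0.00241), without EP+TPA mouse 312 (-1.07, adjusted p 0.0319), with library weights (-0.76, adjusted p 0.0432) and without rescaling (-1.02, adjusted p 0.0384). EP against sham gave -0.68 (95% interval -1.34 to -0.01, adjusted p 0.112), and it passed without EP mouse 327 (-0.94, adjusted p 0.0260) and with library weights (-0.73, adjusted p 0.0279). Without EP mouse 311 it was -0.34 (adjusted p 0.321), and without rescaling it was -0.41 (adjusted p 0.347).

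Nr3c1 in LP varied little. It was 8.01, 7.63, 6.61 and 8.08 in EP+TPA mice 312, 323, 328 and 336, and 9.20, 7.77, 6.63 and 5.75 in EP+RU486 mice 304, 308, 324 and 329. Under EP it was 5.65, 6.22, 4.94 and 4.63 in mice 306, 311, 322 and 327, against 7.55, 8.10, 6.87 and 6.01 in sham mice 301, 305, 310 and 326. EP held the lowest values, with no overlap with EP+TPA and some with the other groups.

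The mean of Nr3c1 in LP was 7.58 ± 0.675 under EP+TPA and 7.34 ± 1.49 under EP+RU486, against 5.36 ± 0.714 under EP and 7.13 ± 0.901 in sham. It rose by 0.44 under EP+TPA relative to EP (SE 0.13, adjusted p 0.0332). Together with the fall of Pgr this made 2 receptor genes called, where 18.3% of genes were called, 7.93% higher and 10.3% lower. The Nr3c1 call was lost without rescaling (0.28, adjusted p 0.132), in a fit of the 2 groups alone (0.44, adjusted p 0.0669), and without EP mouse 306, 322 or 327 or EP+TPA mouse 312, 323 or 336 (adjusted p 0.0591 to 0.0910). EP+RU486 against EP, where Pgr and Esr1 fell and 20.8% of genes were called (9.06% higher, 11.7% lower), gave 0.38 for Nr3c1 (95% interval 0.10 to 0.67, adjusted p 0.0558). It passed without EP mouse 311 or EP+RU486 mouse 329 (adjusted p 0.0312 and 0.0249), with library weights (0.38, adjusted p 0.0321) and with another scaling (0.41, adjusted p 0.0449). EP against sham gave -0.36 (95% interval -0.64 to -0.07, adjusted p 0.0536), and it passed without EP mouse 311 or sham mouse 326 (adjusted p 0.0317 and 0.0385) and with another scaling (-0.37, adjusted p 0.0490). Without rescaling it was only -0.09 (adjusted p 0.609). The direction of all these Nr3c1 differences was the same under each scaling. The 6 comparisons of LP gave 7 calls among 18. These too reuse the same 4 groups, and the share of all genes called ran from 0% to 32.3% by comparison.

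Marker sums in LP moved with the groups as well. Luminal progenitor markers summed to 9143.5 to 19926 under EP+TPA, 7769 to 20319 under EP+RU486, 1568 to 11914 under EP and 17048 to 25381 in sham. Mature luminal markers summed to 3915 to 7962 under EP+TPA, 3588 to 5499.8 under EP+RU486, 4073 to 7617 under EP and 6545 to 12015 in sham. At most 1 gene of either list was at its lowest listed value in an LP library. Their part in the LP results was not tested.

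In MSC none of the 18 receptor comparisons passed, and with both sets pooled the levels of the treatments overlapped for all 3 genes. Esr1 was 5.15, 0.801, 8.03 and 6.27 in EP+TPA mice 312, 323, 328 and 336, and 2.05, 5.31, 1.78 and 6.26 in EP+RU486 mice 308, 313, 324 and 329. Under EP it was 2.66, 5.97, 0.980 and 4.04 in mice 306, 311, 322 and 327, against 2.97, 6.60, 4.96 and 6.43 in sham mice 305, 310, 326 and 334. The low values, at or below 2.97, were those of the 6 libraries of set 2 (mice 305, 306, 308, 322, 323 and 324), so the split by set was wider than any split by treatment. The sets were adjusted separately, and set 2 also holds the LP libraries. Levels of the 2 sets are thus not on 1 scale, and the split is not read as a difference between mice.

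Pgr in MSC averaged 1.44 ± 0.217 under EP+TPA, 1.01 ± 0.441 under EP+RU486, 1.26 ± 0.732 under EP and 1.21 ± 0.692 in sham. Nr3c1 was 9.16, 7.64, 13.6 and 7.78 in EP+TPA mice 312, 323, 328 and 336 and 9.99, 9.53, 8.67 and 11.7 in EP+RU486 mice 308, 313, 324 and 329. Under EP it was 18.3, 6.68, 12.1 and 5.10 in mice 306, 311, 322 and 327, against 13.2, 11.1, 3.8 and 8.09 in sham mice 305, 310, 326 and 334. The highest and nearly the lowest values of the fraction were both in the EP group. They came from mouse 306 of set 2 and mouse 327 of set 3, and so are not on 1 scale.

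With a term for the set, EP against sham gave log2 differences of -0.28 for Esr1 (95% interval -0.82 to 0.26), 0.18 for Pgr (-0.23 to 0.58) and 0.06 for Nr3c1 (-0.69 to 0.82). EP+TPA against EP gave 0.06 (-0.48 to 0.60), 0.02 (-0.38 to 0.43) and 0.08 (-0.68 to 0.84) for these genes in turn. EP+RU486 against EP gave 0.15 (-0.38 to 0.68), -0.12 (-0.52 to 0.27) and 0.07 (-0.68 to 0.81). The Nr3c1 intervals of EP+TPA and EP+RU486 against EP include differences as large as those in LM (0.74 and 0.66). The Esr1 interval of EP against sham does not reach the fall seen in LM, although sizes of folds are not on 1 scale between the sets. For Pgr no such reading is possible, as its EP libraries in MSC lay at 0.39 to 1.51 on the log2(value + 1) scale. Even a fall to 0 would there be smaller than the falls seen in LM or LP. Of 12169 genes tested in MSC, limma called 0 in each comparison, with 634, 860 and 575 at an unadjusted p under 0.05 for EP against sham, EP+TPA against EP and EP+RU486 against EP. For both antagonist groups against sham it was 414 each, again with 0 called. With library weights, Pgr of EP against sham passed at 0.35 (adjusted p 0.0473), and without a set term it was 0.02 (adjusted p 0.997). Within set 3 alone, Nr3c1 averaged 10.2 ± 3.03 under EP+TPA (n = 3) and 10.6 ± 1.54 under EP+RU486 (n = 2), against 5.89 ± 1.11 under EP (n = 2) and 7.65 ± 3.65 in sham (n = 3). There the log2 difference from EP was 0.67 for EP+TPA and 0.76 for EP+RU486 (adjusted p 0.719 and 0.779). Basal markers in MSC summed to 191 to 8529 under EP+TPA, 84.2 to 5952 under EP+RU486, 404 to 5003 under EP and 560.0 to 3207 in sham. Endothelial markers (10 genes) summed to 331 to 924, 339 to 1269, 0 to 1593 and 29.4 to 1048 by group as just listed, and their part in the spread was not tested.

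The 2 antagonists were compared with each other in each fraction, 9 differences in all for the 3 receptor genes, and none passed. The doses are not stated, so whether they match is unknown. In LM, EP+TPA minus EP+RU486 was -0.21 for Esr1 (95% interval -1.05 to 0.63), 0.13 for Pgr (-0.74 to 1.0) and 0.08 for Nr3c1 (-0.35 to 0.51). In LP it was 0.07 for Esr1 (-0.59 to 0.74), -0.32 for Pgr (-1.03 to 0.39) and 0.06 for Nr3c1 (-0.23 to 0.34). In MSC it was -0.09 for Esr1 (-0.64 to 0.45), 0.15 for Pgr (-0.26 to 0.55) and 0.02 for Nr3c1 (-0.74 to 0.77). The interval for Nr3c1 in LP was the narrowest of the 9. A p that misses the threshold does not show that the compounds act alike. Over all genes limma called 0% between the antagonists in each fraction, with 1602 genes in LM, 197 in LP and 194 in MSC at an unadjusted p under 0.05.

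**Figure D2:**
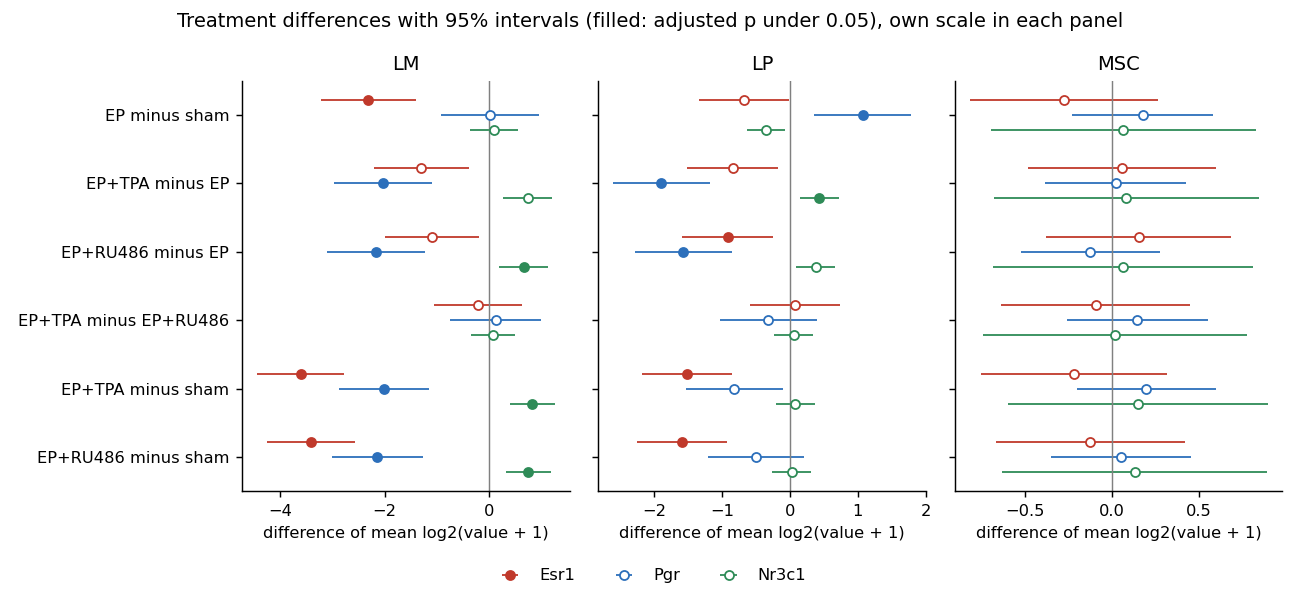
Log2 differences on the log2(rescaled FPKM + 1) scale with 95% intervals for Esr1, Pgr and Nr3c1 in LM, LP and MSC; filled marks have an adjusted p under 0.05. Among comparisons with EP or between EP and sham, the called ones are Esr1 of EP minus sham in LM, Pgr of EP minus sham in LP, Pgr of both antagonists minus EP in LM and LP, Nr3c1 of EP+RU486 minus EP in LM, Nr3c1 of EP+TPA minus EP in LP and Esr1 of EP+RU486 minus EP in LP.

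For Esr1 and Pgr, the 3 EP mice with both libraries stood in opposite orders in LM and in LP. Mouse 311 had the highest Esr1 (11.7) and Pgr (11.1) and the lowest Nr3c1 (3.87) of the EP mice in LM. In LP the same mouse had the lowest Esr1 (2.83) and Pgr (0.950) and the highest Nr3c1 (6.22) of the EP mice. Mouse 327 had the lowest Esr1 (1.63) and Pgr (1.47) of the EP mice in LM and the highest Esr1 (12.4) and Pgr (7.08) in LP. The sums of defining markers differed between these libraries too. In LM, mature luminal markers summed to 10574 in mouse 311, 3776 in mouse 306 and 3134 in mouse 327. In LP, progenitor markers summed to 11914 in mouse 311, 3547.5 in mouse 306, 3688 in mouse 322 and 1568 in mouse 327. The part of cell content in this contrast was not tested, and order within a fraction is the only thing read here, since levels of LM and LP are not on 1 scale.

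**Figure D3:**
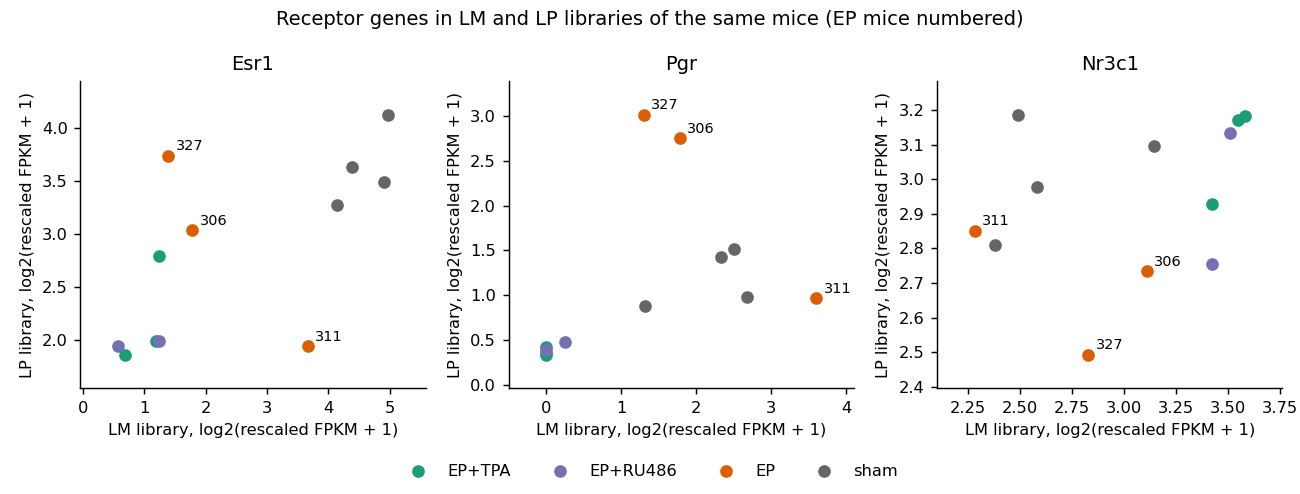
Log2(rescaled FPKM + 1) in LM (horizontal) against LP (vertical) for Esr1, Pgr and Nr3c1 in the 12 mice with both libraries, coloured by treatment, with EP mice numbered. For Esr1 and Pgr, mouse 311 is the EP mouse farthest right and lowest, and mouse 327 is the EP mouse farthest left and highest.

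In the 6 mice of set 2 with both an MSC and an LP library, Esr1 was lower in MSC in 6 of 6 and Nr3c1 higher in 6 of 6. The share of all genes with such counts was not computed, so these counts only describe the receptor genes. The mean log2 differences, MSC minus LP, were -1.11 ± 0.693 for Esr1 and 0.67 ± 0.57 for Nr3c1 (SD). These means pool 1 sham, 2 EP, 1 EP+TPA and 2 EP+RU486 mice, and so mix treatment with fraction. Pgr was higher in MSC in 3, all antagonist mice (0.11 to 0.73), and lower in 3, the sham and EP mice (-2.36 to -1.10). For Esr1 the differences were -2.12 to -1.16 in sham and EP mice and -0.94 to -0.38 in antagonist mice. Those of Nr3c1 were 0.65 to 1.53 and 0.00045 to 0.34 in turn. The Nr3c1 count depends on the rescaling, and in mouse 323 the rescaled levels were almost equal (7.637 in MSC, 7.634 in LP). Without rescaling, Nr3c1 was lower in MSC than in LP in mice 308 (8.98 against 9.05), 323 (3.85 against 8.14) and 324 (5.62 against 7.53).

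The genes whose levels ran most closely with each receptor gene were listed among genes averaging 5 or more in a fraction, by Pearson correlation of log2 values over its libraries, all of which share the treatment groups. In LM (15 libraries) they were Tspan1, Fgg and Man1a for Esr1, with r of 0.978, 0.976 and 0.976, and Ktn1, Mboat1 and Tgm2 for Pgr, with r of 0.990, 0.989 and 0.981. For Nr3c1 they were Fbxo32, Stk39 and 1700025G04Rik, with r of 0.962, 0.958 and 0.951. The most opposed genes were Tgfb2 for Esr1 (-0.963), Acadm for Pgr (-0.969) and G3bp2 for Nr3c1 (-0.959).

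Tspan1, a tetraspanin of the cell membrane, was listed at 0 in all EP+TPA and EP+RU486 libraries of LM, against 5.19 ± 9.0 under EP and 65.6 ± 19.4 in sham. Fbxo32, a ubiquitin ligase subunit, averaged 8.95 ± 1.72 under EP+TPA and 11.2 ± 1.41 under EP+RU486, against 3.34 ± 2.73 under EP and 2.81 ± 2.02 in sham. Genes chosen for their correlation share the broad group pattern of the receptor gene by construction.

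In LP (16 libraries) the closest genes were Fgfr2, Col8a1 and Fbxw11 for Esr1 (r of 0.964, 0.949 and 0.930), Cdo1, Wnt4 and Mtmr7 for Pgr (0.982, 0.972 and 0.972) and Setd3, Ncoa1 and Clasp2 for Nr3c1 (0.932, 0.889 and 0.888). Fgfr2, a fibroblast growth factor receptor, averaged 6.37 ± 1.37 under EP+TPA and 5.67 ± 0.542 under EP+RU486, against 22.3 ± 14.3 under EP and 44.9 ± 15.9 in sham. Cdo1, the cysteine dioxygenase, averaged 12.6 ± 0.822 under EP+TPA and 13.9 ± 3.79 under EP+RU486, against 143 ± 105 under EP and 29.9 ± 8.93 in sham. Ncoa1 encodes a coactivator that binds steroid receptors. In MSC (16 libraries, centred by set) the closest were Sun1 for Esr1 (0.887), Rack1 for Pgr (0.937) and Nsmaf for Nr3c1 (0.907).

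Another 6 groups of genes around the receptors were then counted in the same fits, and 0 members of any group were called in MSC. The groups share members, so their counts are not separate. Fkbp5 is among the progesterone receptor targets, the glucocorticoid receptor targets and the chaperones. Sgk1, Tsc22d3 and Zbtb16 are targets in both the progesterone and glucocorticoid receptor groups, and Areg and Ccnd1 in both the progesterone and estrogen receptor groups. Target genes of the progesterone receptor (15 genes, all tested in LM and LP) were counted first. With EP against sham, 4 rose and 1 fell in LM, with a median log2 difference of 0.55, and 7 rose and 1 fell in LP, with a median of 0.68. With EP+TPA against EP, 5 fell and 0 rose in LM and 9 fell and 0 rose in LP, with medians of -1.83 and -0.89. With EP+RU486 against EP, 6 fell and 0 rose in LM and 9 fell and 0 rose in LP, with medians of -1.49 and -1.15. The median of all genes tested lay between -0.04 and 0.01 in these comparisons. Of all genes, 19.5% in LM and 32.3% in LP were called for EP against sham, 4.34% and 18.3% for EP+TPA against EP, and 17.8% and 20.8% for EP+RU486 against EP. The list was put together with earlier results of these data known, so its counts are a description.

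Tnfsf11, which encodes RANKL, the secreted signal of progesterone in the gland, was 0.915 ± 1.83 under EP+TPA and listed at 0 under EP+RU486 in LM, against 23.4 ± 18.0 under EP and listed at 0 in sham. In LP it averaged 0.999 ± 0.174 under EP+TPA and 1.33 ± 0.677 under EP+RU486, against 21.0 ± 23.6 under EP and 0.897 ± 0.00752 in sham. Areg, the amphiregulin gene, rose in LP by 3.28 under EP relative to sham and fell by 4.48 under EP+TPA and by 4.30 under EP+RU486 relative to EP. Wnt4 and Rspo1, which encode secreted activators of Wnt signalling, fell in LP by 2.65 and 3.0 under EP+TPA and by 2.47 and 3.12 under EP+RU486. Fkbp5, a cochaperone induced by progesterone and glucocorticoid receptors alike, averaged 8.24 ± 1.30 under EP+TPA and 7.88 ± 1.71 under EP+RU486 in LM, against 24.7 ± 9.65 under EP and 4.79 ± 1.68 in sham.

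Stat5a, the transcription factor of prolactin signalling, was an exception among these targets. In LM it rose by 4.54 under EP relative to sham, and it was also higher than sham by 4.16 under EP+TPA and by 4.49 under EP+RU486. In LP the same differences were 1.73, 1.69 and 2.0. Cited1, a coactivator known from estrogen responses, fell in LM by 4.83 under EP relative to sham.

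**Figure D4:**
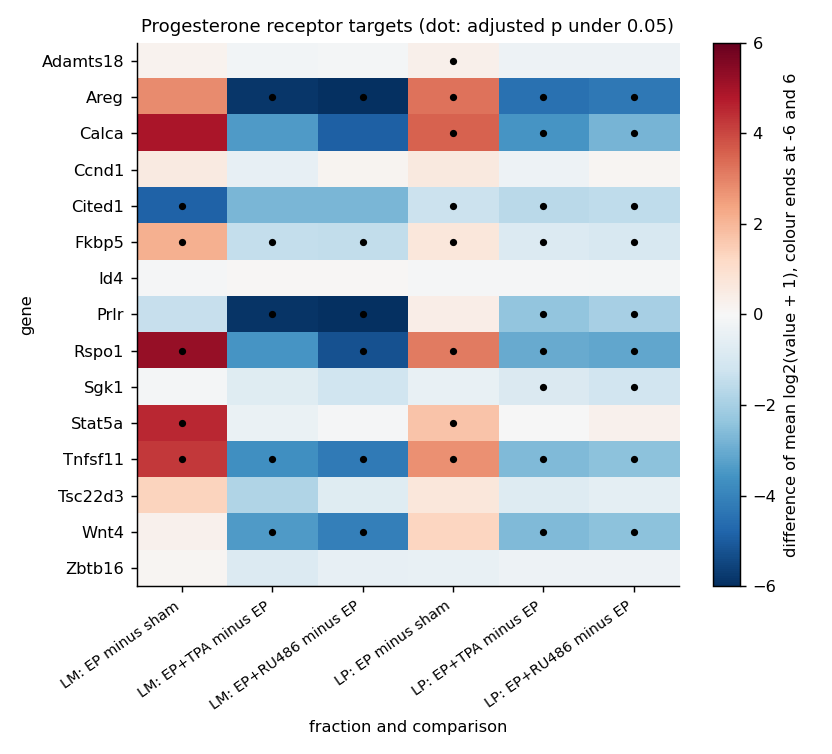
Heat map of the log2 differences of 15 progesterone receptor targets (down the page) in LM and LP for EP minus sham, EP+TPA minus EP and EP+RU486 minus EP; dots mark an adjusted p under 0.05 and colours end at -6 and 6. Tnfsf11 and Areg are higher in EP than in sham in LP and lower with either antagonist, and Stat5a is higher in EP than in sham with no called fall under an antagonist.

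Estrogen receptor targets (20 genes, 16 tested in LM and in LP) moved in both directions. In LM 2 rose and 2 fell with EP against sham, and the called genes were Greb1 (2.24), Rerg (2.89), Rara (-1.43) and Celsr2 (-1.33), where 19.5% of all genes were called. Greb1, a cofactor of the estrogen receptor, fell by 2.04 in LM under EP+TPA relative to EP, together with Stc2, Myb and Areg. In LP 5 rose and 4 fell with EP against sham, and 3 rose and 4 fell with each antagonist against EP. Of all genes, 32.3% were called for EP against sham, 18.3% for EP+TPA against EP and 20.8% for EP+RU486 against EP. Greb1 in LP averaged 0.126 under EP+TPA and 0.162 under EP+RU486, against 3.46 ± 2.26 under EP and 0.110 ± 0.00402 in sham. It passed the filter only through its EP libraries, with at most 0.73 in the other groups of LM and 0.329 in those of LP.

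Glucocorticoid receptor targets (18 genes, all tested) gave calls in both directions. In LM 1 was higher and 2 lower for EP against sham, 1 higher and 2 lower for EP+TPA against EP, and 2 higher and 3 lower for EP+RU486 against EP, where 19.5%, 4.34% and 17.8% of all genes were called. Cebpd, a transcription factor gene induced by glucocorticoids, fell by 2.23 under EP relative to sham and rose by 2.45 under EP+TPA and by 2.35 under EP+RU486 relative to EP. Glul, the glutamine synthetase gene, fell by 1.86 under EP+TPA and by 2.10 under EP+RU486. In LP 2 rose and 5 fell with EP against sham, 3 rose and 5 fell with EP+TPA against EP, and 4 rose and 6 fell with EP+RU486 against EP, where 32.3%, 18.3% and 20.8% of all genes were called. Per1, Errfi1 and Klf9 fell there under EP by 1.46, 2.30 and 1.02.

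Among other steroid receptor genes (14 genes), 3 of 9 tested in LM fell and 0 rose with EP against sham, with a median of -0.47. In LP 4 of 7 fell and 1 rose, with a median of -0.53. Of all genes 19.5% were called in LM and 32.3% in LP, and their medians were near 0. Esrrg, an orphan relative of the estrogen receptor, averaged 0.547 ± 0.181 under EP, against 2.89 ± 0.818 in sham. Nr3c2, the mineralocorticoid receptor gene, averaged 0.979 ± 0.0287 under EP, against 3.76 ± 0.891 in sham, and it also fell in LP, to 1.04 ± 0.230 under EP, against 2.92 ± 0.795 in sham. Pgrmc1, a membrane protein linked to progesterone signalling, was 72.8 ± 21.8 under EP, against 122 ± 4.18 in sham in LM. Esrrb rose in LP to 2.44 ± 2.48 under EP, against 0.0999 ± 0.00995 in sham. It passed the filter there only through its EP libraries, with at most 0.185 in the other groups, which favours a rise. In LM it was 0.965 to 3.96 under EP and listed at 0 in sham. Fewer than 3 LM libraries reached 1, so it was not tested there and the count of rises in LM leaves it out.

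Chaperones and cochaperones of the receptors (16 genes, all tested) gave 2 rises and 0 falls in LM with EP against sham, Fkbp5 (2.14) and Ppid (0.55), where 19.5% of all genes were called. In LP 2 rose and 3 fell, where 32.3% of all genes were called, among them Fkbp4 (0.88), the cochaperone needed for progesterone receptor function, and Hspa8 (-1.04). Hspa4 rose with EP+RU486 against EP in LM (1.69) and with both antagonists in LP (0.91 for EP+TPA and 0.97 for EP+RU486).

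Among genes of local steroid metabolism (17 genes), 2 of 10 tested in LM and 4 of 11 tested in LP rose with EP against sham and 0 fell. Of all genes, 10.5% in LM and 15.8% in LP were called higher, and 8.91% and 16.5% were called lower. Hsd11b2, which inactivates glucocorticoids, averaged 0.131 ± 0.0909 under EP+TPA and 0.0897 ± 0.0867 under EP+RU486 in LP, against 2.40 ± 1.67 under EP and 0.0803 ± 0.0457 in sham. Its log2 difference was 1.52 for EP against sham, -1.46 for EP+TPA against EP and -1.51 for EP+RU486 against EP. Hsd11b2 passed the filter in LP only through its EP libraries, with at most 0.235 in the other groups. In LM it was 0.872 to 6.97 under EP and at most 0.569 in the other groups, and it was not tested there. Srd5a1, which reduces progesterone and testosterone, rose in LM by 0.96 and in LP by 0.57 under EP.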

How the data were processed

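RNA of sorted mammary cells was amplified from full-length polyA transcripts (SMART-Seq v4) and read as pairs of 75 bases, per the labels' protocols. The submitters' processing notes name the tools Cufflinks, STAR and DESeq2 and the mouse build mm9. The deposited values are described as counts but are not whole and have the scale of FPKM, and the authors' table carries a further adjustment by gene, inferred from identical values. Pairs of libraries within each of 3 sets shared 1382 to 6488 identical positive values, and pairs from different sets shared 0. The means of a gene over the sets were almost equal (median absolute log2 deviation 0.0407 over 11008 genes). Levels before that adjustment are unknown, so folds may be altered by it and differences in mean between sets are lost.

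From these values, 27 date-like symbols were left out, which kept 21980, and each library was rescaled within its set by a median-ratio factor of 0.504 to 1.32. Genes with 3 or more libraries at 1 or more, and 3 or more above the set's lowest value, were tested. A gene high in 1 treatment group alone could pass only through that group, which favours a difference there. All 3 receptor genes passed in each fraction. limma 3.58.1 in R 4.3.3 was run on log2(value + 1), with trend and robust moderation, the 4 treatments of a fraction in 1 fit, and a set term in MSC. Benjamini-Hochberg adjustment covered every gene tested, and results with an adjusted p below 0.05 are referred to as called. A table of counts would have been tested with a count model, which values of this kind do not suit. The fit was also run on simulated log values with normal noise and known shifts. That simulation held no values tied at the lowest listed value and no adjustment by set, so it does not cover those features of the data. Python 3.11.15, numpy 2.4.6, pandas 2.3.3, scipy 1.17.1 and matplotlib 3.10.9 made the summaries and figures. Alternatives were an added value of 0.1, no rescaling, another scaling, no filter, 2 groups alone, library weights, no set term, set 3 alone and each library left out.

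The receptor genes, gene lists and markers were chosen with earlier results of these data known. Of a list, at most 4 called members per comparison are named, those with the smallest p first. The genes most like a receptor gene are the 3 with the highest and the 1 with the lowest correlation among genes averaging 5 or more. Different mice are the replicates within a fraction.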

Additional observations from a re-analysis of the deposited data

Results flagged for a closer look

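Pgr in LM stood apart in 1 library of each antagonist group. It was 0.709 in EP+TPA mouse 332 and 0.183 in EP+RU486 mouse 308, and the other 3 libraries of each group were listed at 0, so the gap of each to its nearest neighbour was 1 times the range of the group, over the limit of 0.829 for 4 samples. With the others tied at 0, any value above 0 would give this gap, so it says no more than that 1 library of each group was above 0. Of the 33 groups examined this way, chance alone would mark about 1 in 20. Mouse 332 was also the EP+TPA mouse with 1 of 15 mature luminal markers at the lowest listed value in LM, against 6 of 15 in each of the other 3.

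The difference in Pgr between the antagonists, EP+TPA minus EP+RU486, was -0.32 in LP and 0.15 in MSC. Every EP+TPA library lay below the mean of EP+RU486 in LP and above it in MSC. In MSC that split rests on pooling both sets of libraries: within set 3, EP+TPA mouse 312 (1.33) lay below the EP+RU486 mean of 1.37 (n = 2). The difference between the fractions was not tested, and neither value passed the threshold within its fraction.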

How the results depend on the processing

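No paired analysis was possible because no mouse gave libraries of the same fraction under different treatments. The calls that changed with a single library or setting are given with the results above, and 0 called results changed sign. With each library left out, 104 fits kept a call and 28 lost it; under the other settings 91 kept it and 11 lost it. Fits leaving out 1 library gave these log2 ranges in LM. For EP+TPA minus EP they were -2.50 to -1.35 (Pgr), 0.51 to 0.93 (Nr3c1) and -1.74 to -0.61 (Esr1). For EP+RU486 minus EP they were 0.43 to 0.85 (Nr3c1) and -1.53 to -0.40 (Esr1). In LP, EP minus sham gave 0.83 to 1.51 (Pgr), -0.42 to -0.30 (Nr3c1) and -0.94 to -0.34 (Esr1). EP+TPA minus EP gave 0.38 to 0.50 (Nr3c1) and -1.18 to -0.58 (Esr1). EP+RU486 minus EP gave -1.26 to -0.66 (Esr1) and 0.28 to 0.48 (Nr3c1).

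Calls of LM Pgr, EP+TPA minus EP, were lost in a fit of 2 groups alone (-2.03). LM Nr3c1, EP+RU486 minus EP, was lost with no rescaling (0.52), another scaling (0.63), no filter (0.66) and 2 groups alone (0.66). LP Esr1, EP+RU486 minus EP, was lost with another scaling (-0.90), no filter (-0.92) and 2 groups alone (-0.92). LP Pgr, EP minus sham, was lost with 2 groups alone (1.07). LP Nr3c1, EP+TPA minus EP, was lost with no rescaling (0.28) and 2 groups alone (0.44). Calls were gained with library weights for LM Nr3c1 (0.60, EP+TPA minus EP), LP Esr1 (-0.73, EP minus sham, and -0.76, EP+TPA minus EP), LP Nr3c1 (0.38, EP+RU486 minus EP) and MSC Pgr (0.35, EP minus sham). They were gained with no rescaling for LM Esr1 (-1.39 and -1.19) and LP Esr1 (-1.02), and with another scaling for LP Nr3c1 (-0.37 and 0.41). Apart from leaving out samples or genes, the cause was not tested.

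Counts of all genes called moved by more than 1.5 times with library weights. In LM they were 4697 (2313 with equal weights) for EP minus sham, 2748 (516) for EP+TPA minus EP, 3847 (2118) for EP+RU486 minus EP, 3549 (1906) for EP+TPA minus sham and 5017 (2546) for EP+RU486 minus sham. In LP they were 3159 (2081) for EP+TPA minus EP, 1447 (576) for EP+TPA minus sham and 2602 (1187) for EP+RU486 minus sham. In MSC they were 1102, 158, 100, 5 and 3 in the same order as in LM, where equal weights gave 0. In fits of 2 groups alone they were 2 for LM EP+TPA minus EP, 1172 for LM EP+TPA minus sham, 922 for LP EP+TPA minus EP, 1917 for LP EP+RU486 minus sham and 1 for MSC EP+TPA minus EP. With no rescaling they were 788 for LM EP+TPA minus EP and 5 for MSC EP+TPA minus EP; with no filter MSC gave 1 or 2, and with 0.1 added LM EP+TPA minus EP+RU486 gave 1.

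With no rescaling the median of all genes for EP minus sham was 0.144 in LM and 0.245 in LP (-0.0084 and -0.0033 with rescaling), and the share of calls that were higher became 68.8% (54.2% with rescaling) in LM and 80.6% (49.0%) in LP. For EP+RU486 minus EP that share became 30.3% (44.9%) in LM and 26.9% (43.6%) in LP, and for EP+TPA minus EP in LP it became 19.9% (43.4%). For LP against sham it became 64.6% (34.7%) with EP+TPA and 75.4% (38.2%) with EP+RU486. Read depth is unknown, and groups of 3 or 4 mice limit the precision.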
